A study of Mus musculus with 35 samples.

Results

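The ribosomal protein genes are the mouse genes for the protein subunits of the cytoplasmic ribosome. They were taken here as the protein-coding genes of the GENCODE vM1 annotation on genome build mm9 whose symbol is Rpl or Rps followed by a number and, in some, a suffix a, x, y or l, together with Rplp0, Rplp1, Rplp2 and Rpsa. The kinases named Rps6k and all pseudogenes were left out. This gave 80 genes of 37310, of which 48 encode proteins of the large subunit and 32 proteins of the small subunit. The choice used symbols and gene types only and no measured value.

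Ribosomal protein mRNAs are short, abundant and exported continuously, because growing cells need equal amounts of every subunit. Many of them start with a run of pyrimidines at the cap, the 5′ terminal oligopyrimidine (5′ TOP) tract, through which their translation follows growth signals. Their introns are a main source of small nucleolar RNAs (snoRNAs), which guide the chemical modification of ribosomal RNA and are cut out of the spliced intron. C/D box snoRNAs (names in SNORD) guide methylation, and H/ACA box snoRNAs (names in SNORA) guide pseudouridylation.

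The libraries are iCLIP libraries, in which RNA is joined to protein by UV light, precipitated with the protein and read to the single nucleotide, from P19 cells, a mouse embryonal carcinoma line, and a listed cDNA, which marks 1 cross-link event at 1 nucleotide, is called a tag. Every line carried GFP fused to 1 protein on a bacterial artificial chromosome beside the endogenous protein, was a selected clone, and was immunoprecipitated with the same anti-GFP antibody. There were 3 libraries of NXF1, the main export receptor of mRNA at the nuclear pore. Of the splicing factors of the SR family, SRSF1 and SRSF5 had 4 libraries each, SRSF2 had 5, SRSF3, SRSF4 and SRSF6 had 3 each and SRSF7 had 6. The control was a pooled file of 4 control libraries of GFP with a nuclear localization signal (GFP-NLS), which entered no test. The study asked whether SR proteins act as adaptors that bring NXF1 to mRNA.

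The files hold just those positions that met the authors' false discovery rate of 0.05, so 0 means that none was listed there, and a library total counts listed tags. The 31 single libraries held 13038 to 4459523 tags, so that values of the small libraries rest on few tags, and the GFP-NLS file held 21880. Libraries labelled SRSF2 replicates 2 and 5, the largest of that group, have headers that name SRSF1. They stayed in the labelled group, and calls that were lost without them are given beside the result. Headers date the runs of NXF1, SRSF1, SRSF3 and SRSF4 to 2014, those of SRSF2, SRSF5 and SRSF6 to 2013 and those of SRSF7 to both years, so run year and protein cannot be told apart for most comparisons. The share of listed tags in coding genes was 17.6 to 27.8% for NXF1, against 14.1 to 50.9% for SRSF5, 60.7 to 79.3% for SRSF3 and 75.3 to 77.4% for SRSF6, and therefore levels were also scaled to coding-gene tags. Pluripotency markers matched the label of the cells, with tags in 9 of 9 genes and a median summed level of 644 CPM (0 to 2472 over the libraries), where CPM is the count of tags scaled to a library of 1e6 listed tags. Of the other markers, 5 of 5 fibroblast genes had tags at up to 31.8 CPM in sum, 3 of 5 neuronal genes at up to 383 CPM, 1 of 3 blood genes at up to 18.4 CPM and 0 of 2 liver genes.

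The sites that carry the results are shown with the RNA strand 5′ to 3′ on mm9, as 30-nt windows whose 16th base is the most tagged position. Capitals mark bases that were listed in at least 2 of the 3 libraries of NXF1 or SRSF3, in 2 of 4 of SRSF1 and SRSF5, or in 3 of 6 of SRSF7. Bases inside annotated snoRNAs stay in lower case, because tags there were counted apart. The first set holds the most tagged exonic sites of SRSF3 and SRSF7 in the parts that passed the test, and those of SRSF5 and SRSF1 in Rpl13a and Rpl22, which are among the genes with the highest levels.
Rpl32 5′ UTR, SRSF3 (chr6:115758749-115758778, minus strand): gccgccgccgcctcTTCCTTcTTcCTCggc
Rps24 5′ UTR, SRSF3 (chr14:25309927-25309956, plus strand): gcagtgagcgGTCCTCTTTTcCTccTCTCc
Rplp1 5′ UTR, SRSF3 (chr9:61762230-61762259, minus strand): AGcAcCGTGccGGCaGTCTACAGCaTGGCT
Rpl28 5′ UTR, SRSF3 (chr7:4744811-4744840, plus strand): aaagctctTgctcgcTTTTtcccaacggtg
Rps24 CDS, SRSF7 (chr14:25312617-25312646, plus strand): gaGaaGaaaaaGacCTCCcgaaaaCagCGa
Rpl13a CDS, SRSF5 (chr7:52382084-52382113, minus strand): aGGTGTTggatgggATCCCTcCaccctatG
Rpl22 CDS, SRSF1 (chr4:151706482-151706511, plus strand): gcGTTACTTcCaGATTAAcCAgGAtGaAGa

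The second set holds the most tagged intronic sites of NXF1 in the 5 genes with the most intron tags and in Rps16. In all but Rpl3, where capitals are spread over the second part of the window, they form 1 short run. Where a snoRNA begins inside the window, the run ends there by the way of counting, so its length does not show where NXF1 tags end.
Rpl5 intron 6 (chr5:108334180-108334209, plus strand): cttgctggtcagaAAActgcaaactcgatc
Rpl3 intron 1 (chr15:79913320-79913349, minus strand): acaaatgatgaacCTTTtgaCGGGcGGaca
Rpsa intron 4 (chr9:120039517-120039546, plus strand): gaagccttcaccgtCCcctgcacattgtta
Rps12 intron 3 (chr10:23506336-23506365, minus strand): tttgtaaagctacaGTgtttgcatgatgac
Rpl4 intron 4 (chr9:64023662-64023691, plus strand): ataatgttcttgacTGtcaaaatgatgaaa
Rps16 intron 2 (chr7:29136510-29136539, plus strand): tgaagtctaacattGGTagcacttgtatgg

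Of the 80 genes, 77 had tags, 188288 tags in all over the 31 libraries, and the 3 without were Rpl10l, Rpl39l and Rpl3l, relatives of widely used subunits that are known for expression in testis or muscle. Tags were found in at least 20 libraries for 50 genes and in all 31 for 0, and single libraries reached 5 to 77 genes. The summed level of the genes was 6994, 8457 and 6918 CPM in the NXF1 libraries, against 872 to 13347 CPM (median 6309) in the 28 SR protein libraries, which overlapped them on both sides. The pooled GFP-NLS file had 1554 CPM, from 34 tags in 10 genes. Relative to coding-gene tags alone the NXF1 libraries stood higher, with 2.51, 4.28 and 3.92% of them in ribosomal protein genes, against 0.259 to 2.54% in the SR protein libraries, and only the lowest NXF1 value lay within the range of the others. These shares include tags within 20 nt of a small RNA, 40.4, 53.7 and 61.3% of the NXF1 tags in these genes (0 to 58.6% with SR proteins). Without them the NXF1 levels were 4169, 3919 and 2677 CPM, and the share of coding-gene tags is not given here.

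**Figure D1:**
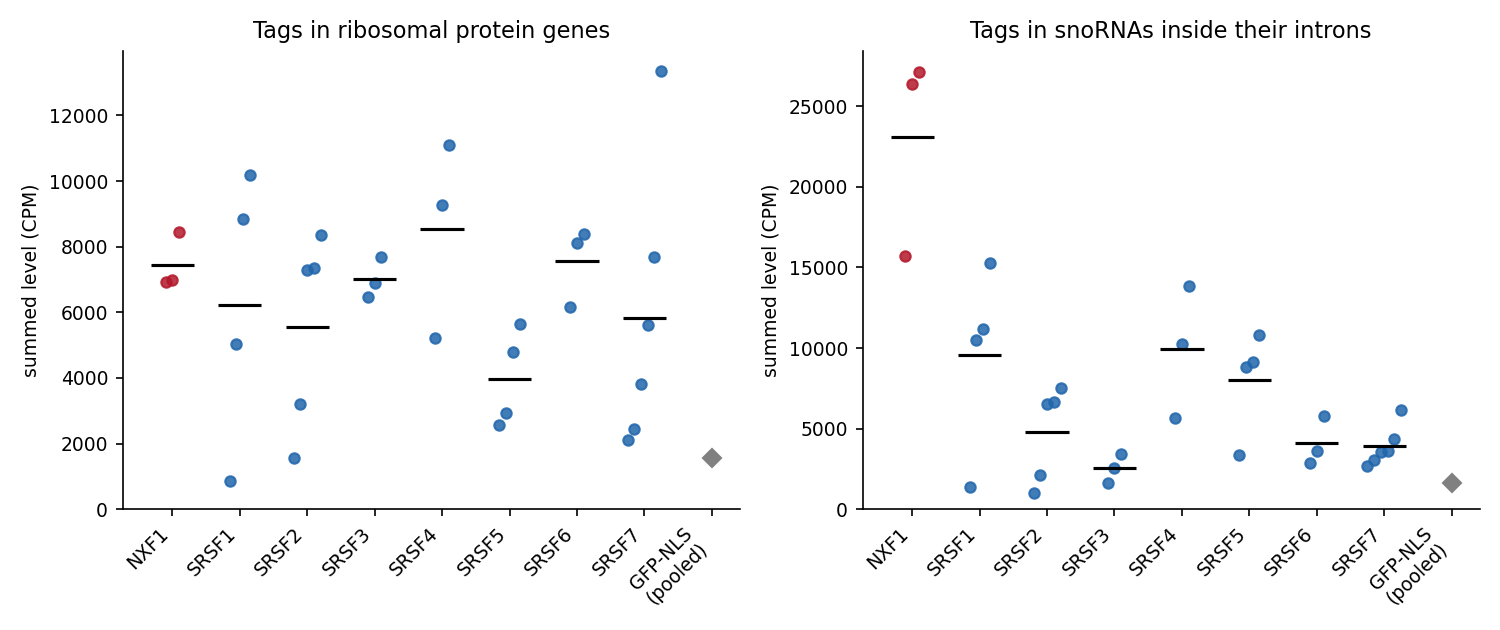
Summed level (CPM) of the ribosomal protein genes (left) and of the snoRNAs inside their introns (right) by protein. Points are libraries set out by value, black lines are group means and the diamond is the pooled GFP-NLS file (1554 CPM in the genes, 1600 CPM in the snoRNAs); the NXF1 libraries lie inside the range of the SR proteins on the left and above all of them on the right.

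Levels were uneven over the genes, and the 10 highest held 40.4% of the summed mean level. Rpl4, a large subunit protein, led with a mean of 620 ± 472 CPM (SD, n = 31) and was highest with SRSF4 (1192 ± 358 CPM, n = 3) and SRSF6 (1027 ± 296 CPM, n = 3) and lowest with SRSF5 (182 ± 180 CPM, n = 4). After Rpl4 came Rps9 (235 ± 172 CPM), Rpl7a (234 ± 167 CPM), Rps3 (233 ± 194 CPM), Rpl22 (223 ± 204 CPM), Rpl26 (217 ± 175 CPM), Rpl5 (202 ± 180 CPM), Rpl32 (200 ± 148 CPM), Rpsa (192 ± 212 CPM) and Rpl13a (190 ± 161 CPM), neighbours in this order that did not differ beyond their spread. Scaled by exon length, high means were those of Rpl4 (352 CPM per kb of exon), Rpl26 (311), Rpl32 (306) and Rps9 (199). Rps6, whose protein is the classic substrate of the S6 kinases, stood near the bottom with a mean of 5.67 ± 14.5 CPM, and Rps19, the gene most often mutated in Diamond-Blackfan anaemia in humans, had 22.5 ± 35.5 CPM with no listed tag in any NXF1 library. Among the other genes for well-studied subunits, the stalk proteins Rplp0 and Rplp2 averaged 149 ± 136 and 108 ± 79.5 CPM, Rps2 118 ± 63.8 CPM, Rpl12 of the stalk base 76.1 ± 87.4 CPM, Rpl11, which with Rpl5 binds Mdm2, 47.7 ± 43.9 CPM, and the ubiquitin fusion gene Rps27a 22.6 ± 24.2 CPM.

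Ribosomal protein genes have many processed copies in the genome, and a read that fits several copies can be lost or misplaced. Of the 32-nt stretches of their mRNAs a median of 40.7% occurred once in mm9, against 97.5% for mitochondrial ribosomal protein genes. The share was 2.72% for Rps12, 5.56% for Rpl7a, 6.09% for Rps6 and 9.32% for Rpl3, so exonic levels of these genes are uncertain. A low level, as that of Rps6, cannot be told apart from reads without a single place. Of the tags in ribosomal protein genes 78.9% began a 32-nt stretch that occurs once (98.5% in introns, 82.9% in 5′ UTRs and 64.3% in CDS). The printed sites of the 5′ UTRs and introns each occur once, whereas that of the Rps24 CDS has 3 copies. Within the parts named below, tags beginning a single-copy stretch were 100% in the Rpl28 5′ UTR, 91.9% in the Rps24 5′ UTR, 51.3% in the Rplp1 5′ UTR, 40.4% in the Rpl32 5′ UTR, 69.3% in the Rplp1 CDS and 19.4% in the Rps24 CDS, so most tags of the Rpl32 5′ UTR and the Rps24 CDS, over all libraries, have more than 1 possible place.

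**Figure D2:**
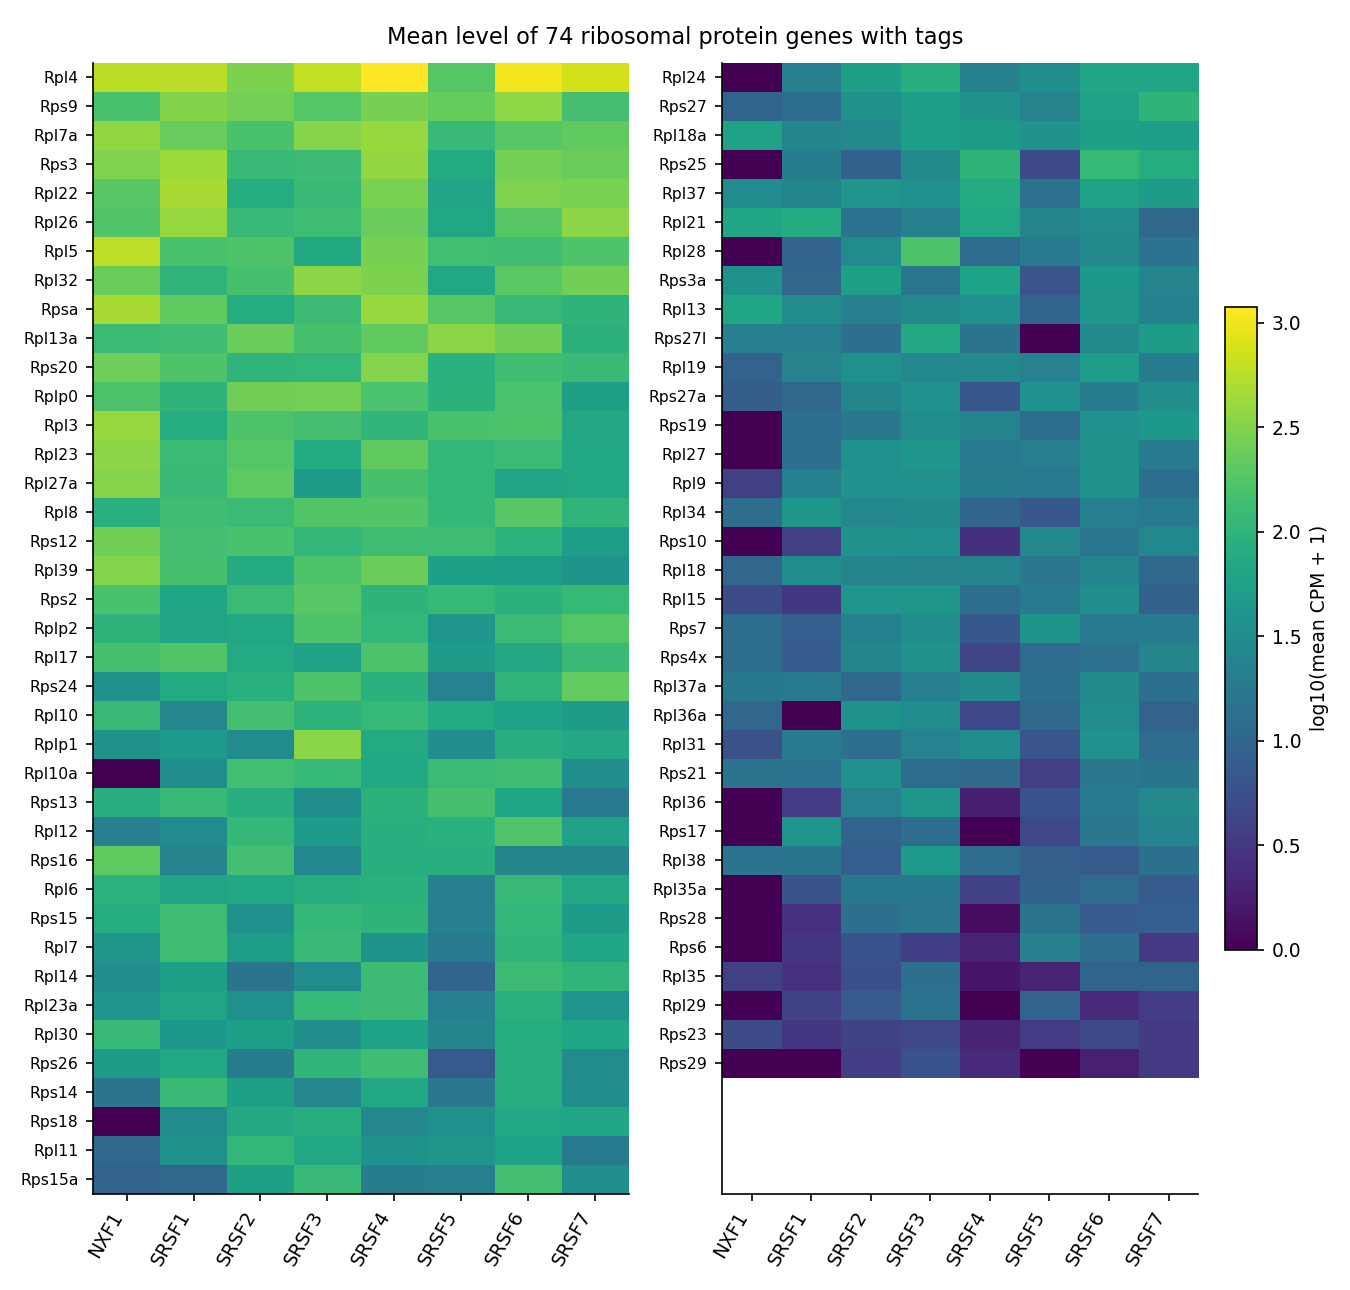
Mean level of 74 ribosomal protein genes with tags, in order of the mean over the 31 libraries, for each protein (columns), in 2 blocks. Color gives log10(mean CPM + 1); Rpl4 is at the top of the left block (620 CPM), and the darkest cells, such as Rpl10a with NXF1, are genes with no listed tag in any library of that protein.

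The share of tags near the 5′ end of ribosomal protein mRNAs was high with SRSF3, SRSF2 and SRSF5. The 5′ UTR held 18.7, 11.4 and 13.4% of the tags in these genes in the SRSF3 libraries, against 2.86 to 23.1% (median 7.36%) in the 25 libraries of the other SR proteins, which overlapped them. In the same SRSF3 libraries 4.35 to 7.89% of the tags in all other coding genes lay in the 5′ UTR, although the 5′ UTRs of the ribosomal protein genes are the shorter ones (median 85 nt, against 122 nt in the other coding genes). The first 50 nt of the mRNA held 7.0 to 12% of the mRNA tags with SRSF3, against 1.59 to 3.03% in the other coding genes. SRSF5 (6.25 to 11.1%, against 2.50 to 4.17% in the other coding genes) and SRSF2 (0 to 16.7%, median 7.70%) overlapped SRSF3. The first 100 nt held 17.1 to 24.3% with SRSF3, 17.0 to 25% with SRSF2 and 17.5 to 33.3% with SRSF5, so a high share at the mRNA start is not particular to SRSF3. SRSF2 (9.64 to 16.0% in the 5′ UTR) and SRSF5 (4.50 to 16.9%) overlapped SRSF3, whereas SRSF6 (3.91 to 5.47%) and NXF1 (2.19 to 4.09%) were below each SRSF3 library.

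Single 5′ UTRs were compared in a limma voom fit of 6372 gene parts over the 31 libraries, with SRSF3 set against the mean of the other 6 SR proteins, and adjusted p-values are Benjamini-Hochberg values over all parts. Of 11 ribosomal protein 5′ UTRs that passed the filter on low values, 4 were higher with SRSF3 and 0 lower, a share to be read against 25.2% of all 278 tested 5′ UTRs called higher and 6.47% called lower. The median log2 change of the 11 was 1.07, against 0.72 for all tested 5′ UTRs. The 4 were those of Rpl28, Rpl32, Rplp1 and Rps24.

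The 5′ UTR of Rpl28, a large subunit protein, had 171, 106 and 98.5 CPM in the SRSF3 libraries, against 0 to 18.1 CPM (median 0) in the 25 libraries of the other SR proteins. All 3 SRSF3 libraries were above every other library. The log2 change was 3.64 (SE 0.62, limma adjusted p = 1.85e-04), and the call held in the 37 alternative analyses that tested it. The 5′ UTRs of Rplp1, Rpl32 and Rps24 were tested in 40 each. The filter asks for 42.1 CPM in 3 libraries, which among SR protein libraries only those of SRSF3 reached here. Leaving out any SRSF3 library can therefore drop this part from the test, so the call is not shown to hold without each of them. The tags of Rpl28 were spread along the 339-nt 5′ UTR, and the printed site, at position 235 of the mRNA, held 4.30% of them.

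The 5′ UTR of Rplp1, which encodes an acidic stalk protein, had 142, 90.1 and 97.0 CPM with SRSF3, against 0 to 56.2 CPM (median 7.92) with the other SR proteins, again with no overlap (log2 change 2.75, SE 0.64, adjusted p = 0.00296). That of Rpl32 had 134, 59.5 and 63.1 CPM, against 0 to 70.2 CPM (median 5.17), and was higher by 2.79 on the log2 scale (SE 0.65, adjusted p = 0.00277). That of Rps24, mutated in some cases of Diamond-Blackfan anaemia in humans, had 127, 73.9 and 53.9 CPM, against 0 to 70.2 CPM (median 8.53), and was higher by 2.51 (SE 0.64, adjusted p = 0.00572). For both Rpl32 and Rps24 1 SRSF7 library, replicate 3, reached the SRSF3 range. Without SRSF3 replicate 1 or 2 the call for Rps24 was lost. Counting each position once ended the calls for Rplp1, Rpl32 and Rps24, and so did leaving out the filter on low values. Among 2014 libraries alone all 4 calls remained, with adjusted p-values of 4.45e-04 for Rpl28 to 0.0113 for Rps24. There SRSF3 was set against SRSF1, SRSF4 and the 2014 libraries of SRSF7 only. SRSF2 and SRSF5, which overlapped SRSF3 at mRNA starts, SRSF6 and SRSF7 replicate 3 were not in that comparison.

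The sites of Rpl32 and Rps24 sat in pyrimidine runs close to the cap. The most tagged base of the Rpl32 window was position 3 of the annotated mRNA and that of the Rps24 window position 40, and the 30-nt windows averaged 64.7 ± 37.2 and 66.8 ± 31 CPM with SRSF3 (SD, n = 3), against means of 1.84 to 13.8 and 3.86 to 15.8 CPM with the other SR proteins. Read on the RNA strand only, the letters CNTC stood 5 times in the Rpl32 window, 3 times in the Rps24 window and 0 times in those of Rplp1 and Rpl28. CNTC stood in 48.9% of all 30-nt windows of ribosomal protein 5′ UTRs and in 38.1% of those of other coding genes, so its presence does not set these sites apart. These shares cover spliced 5′ UTR sequence only, whereas the Rpl32 window, with some of its CNTC letters, begins upstream of the annotated mRNA. In Rplp1 the tags ran on across the end of the 110-nt 5′ UTR. The CDS had 305, 191 and 189 CPM with SRSF3, against 0 to 179 CPM (median 38.2) with the other SR proteins, and was higher by 2.48 (SE 0.79, adjusted p = 0.0233), 1 CDS of 35 at a background of 8.69%, with 0 lower at 4.25%. This call was lost without any 1 SRSF3 replicate (adjusted p = 0.105 to 0.110), with trimmed-mean scaling, without the filter on low values and with positions counted once.

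**Figure D3:**
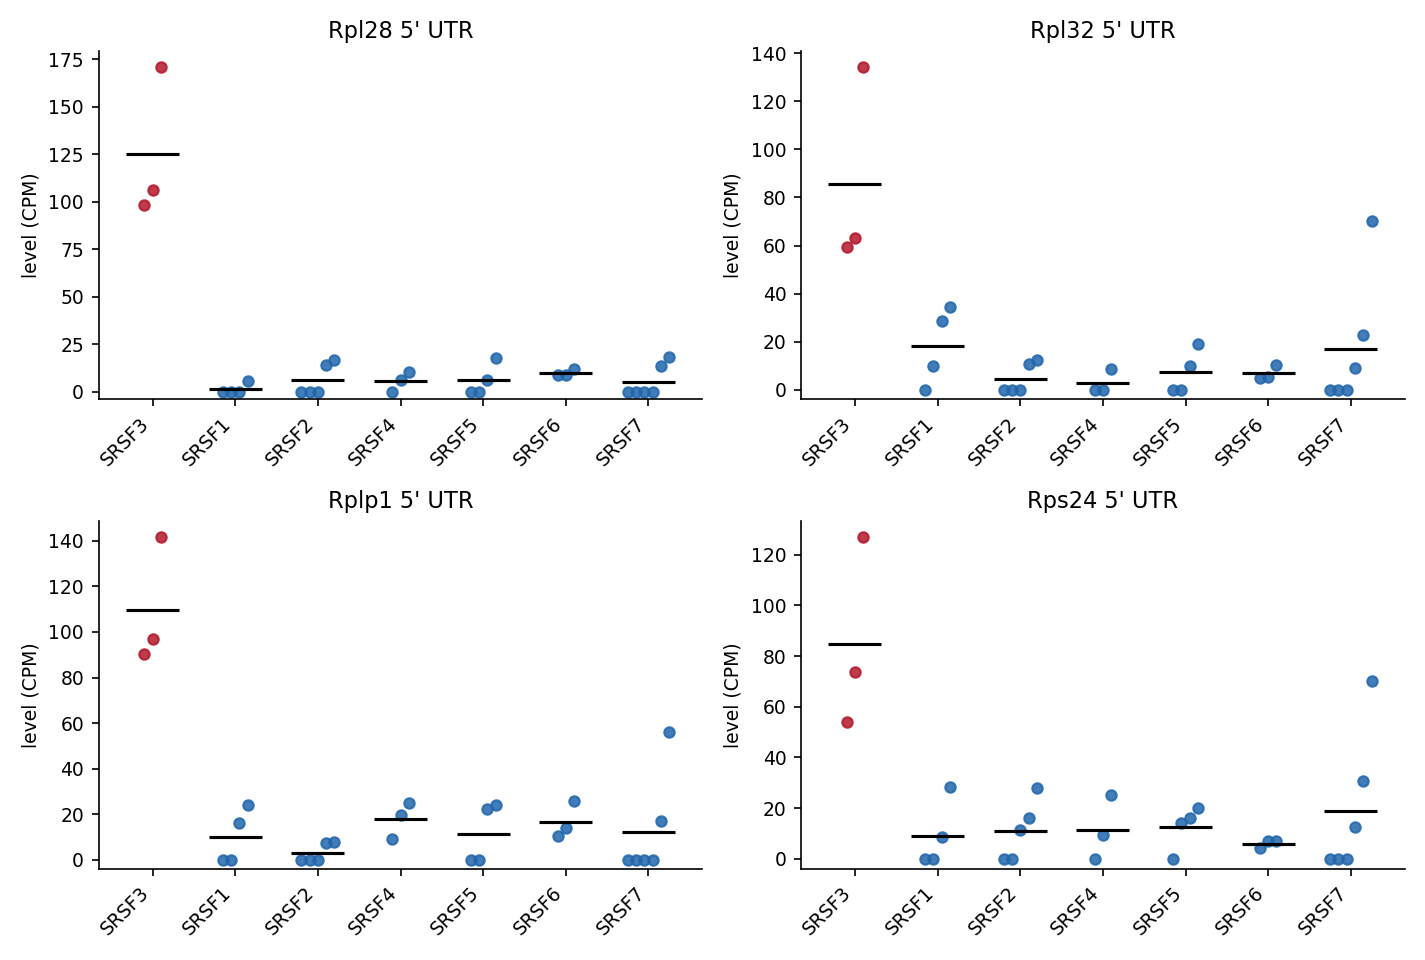
Level (CPM) of the 5′ UTRs of Rpl28, Rpl32, Rplp1 and Rps24 in each library of SRSF3 (red) and of the other 6 SR proteins (blue). Points are libraries set out by value and black lines group means; all 3 SRSF3 libraries lie above all others for Rpl28 and Rplp1, and an SRSF7 library at 70.2 CPM overlaps SRSF3 for Rpl32 and Rps24.

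Whole genes gave fewer calls. Of 6104 genes tested, 66 were ribosomal protein genes, and SRSF3 was higher in 2 of them (3.03%, background 8.45%) and lower in 0 (background 2.39%). Rpl28 had 208, 151 and 136 CPM with SRSF3, against 0 to 61.9 CPM with the other SR proteins (log2 change 2.90, SE 0.66, adjusted p = 0.00429), and Rplp1 had 447, 285 and 286 CPM, against 0 to 235 CPM (log2 change 2.76, SE 0.75, adjusted p = 0.0157). Neither overlapped. Without SRSF3 replicate 2 the count was 0, and the call of Rplp1 was lost without any 1 SRSF3 replicate (adjusted p = 0.0891 to 0.114). In introns the direction was the other way: the median log2 change of 27 ribosomal protein introns was -0.80, against 1.23 for all 1799 tested introns, and that of Rpl32 was lower with 0, 26 and 16.9 CPM, against 0 to 182 CPM (log2 change -2.12, SE 0.76, adjusted p = 0.0424, kept in 23 of 39 alternatives, with 1.89% of all introns called lower). Scaling to coding-gene tags moved the median of all genes by -0.63 and gave 2 genes higher and 5 lower, and for gene parts 5 higher and 12 lower. With the main scaling the parts were 5 and 1, against 17.0 and 3.55% of all parts. Shares of all genes or parts called relative to coding-gene tags are not given here.

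SRSF7 stood out at 1 part, the CDS of Rps24. It had 0, 146, 93.6, 126, 242 and 223 CPM in the 6 SRSF7 libraries, against 0 to 81.0 CPM (median 30.1) in the 22 libraries of the other SR proteins. All SRSF7 libraries but replicate 1, which holds 32 tags in ribosomal protein genes, were above every other library. Replicate 5, with the highest value, holds 35 such tags, and replicates 2 and 3 hold 209 and 240, so these values rest on few tags. The log2 change was 2.20 (SE 0.51, limma adjusted p = 0.0138), 1 of 75 ribosomal protein parts at a background of 2.37% of all parts called higher. The most tagged site lies in exon 4, and its 30-nt window averaged 112 ± 83.7 CPM with SRSF7 (SD, n = 6), against means of 0 to 40.1 CPM with the other SR proteins. Because the top position of that window has 3 copies in mm9, its place is uncertain. Within 1 run year the change was as large but the call was lost (2.25, adjusted p = 0.11 in 2014, and 2.19, adjusted p = 0.121 in 2013). The 2014 fit set SRSF7 against SRSF1, SRSF3 and SRSF4, and the 2013 fit against SRSF2, SRSF5 and SRSF6. Trimmed-mean scaling, limma-trend, the replicate block and positions counted once also ended the call. So did leaving out the filter on low values and keeping only libraries of 50000 to 250000 tags. It was kept in 34 of 42 alternatives.

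Introns held 41.6, 53.4 and 50.5% of the tags in ribosomal protein genes in the NXF1 libraries, against 6.22 to 67.0% (median 23.5%) in the SR protein libraries, which overlapped them. The tags were piled on few positions, and with each position counted once the NXF1 share was 17.5 to 24.9%. In the other coding genes of the same NXF1 libraries 30.1 to 40.2% were intronic. The 3′ UTR held 2.39 to 3.67% of the NXF1 tags in ribosomal protein genes, against 23.1 to 27.3% in the other coding genes, whose 3′ UTRs are longer (median 68.5 nt in ribosomal protein genes and 548 nt in other coding genes). The CDS held 27.9 to 39.3%.

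**Figure D4:**
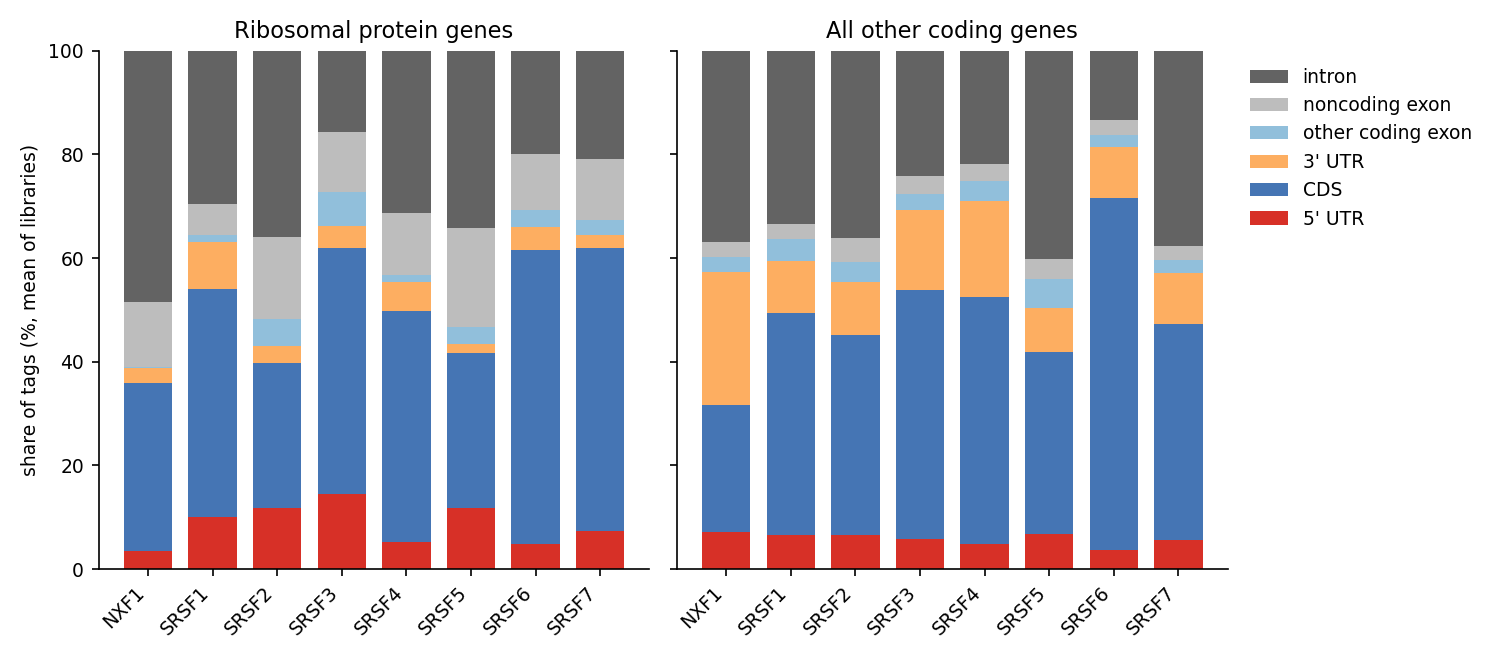
Mean share of tags (%) by transcript part for each protein, in ribosomal protein genes and in all other coding genes. Stacked colors are parts; SRSF3 has the widest 5′ UTR segment relative to other coding genes, and NXF1 has an intron segment of 41.6 to 53.4% over its 3 libraries (17.5 to 24.9% with each position counted once).

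These intron tags lay beside snoRNAs. Of the 80 genes, 30 host 58 annotated snoRNAs, all in introns. With NXF1 72.2 to 92.6% of the intron tags in ribosomal protein genes were within 20 nt of an annotated small RNA, against 0 to 86.2% with SRSF1, 0 to 78.6% with SRSF2, 36.8 to 46.1% with SRSF3, 47.5 to 89.5% with SRSF4, 44.8 to 87.6% with SRSF5, 35.8 to 48.2% with SRSF6 and 0 to 84.4% with SRSF7. With libraries pooled, SRSF1 (79.0%) stood next to NXF1 (80.1%), so tags beside small RNAs are not particular to NXF1. Without tags beside small RNAs the intron share with NXF1 was 9.62 to 21.6% in ribosomal protein genes and 28.9 to 38.8% in the other coding genes, so the order of the 2 gene classes turned round. RefSeq places Snord43 in Rpl3 and Snora78 in Rps2, which are not among the 58 snoRNAs counted here, so tags on or beside them stayed in this intron share.

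In Rps16, Rpsa, Rpl5, Rps12 and Rpl4 the printed NXF1 sites lie at the 5′ end of a snoRNA. The window levels leave out tags inside annotated snoRNAs. In Rps16 the top position, 29136525, is 2 nt before the first base of SNORA40 at 29136527, and the window averaged 169 ± 40.8 CPM with NXF1 (SD, n = 3). In Rpsa the window (245 ± 157 CPM) has its top position just before Snora62, which starts at 120039533, and in Rpl5 (320 ± 131 CPM) just before SNORA66, which starts at 108334196. The Rps12 site (160 ± 61.8 CPM) lies by the first base of SNORD101, 23506349, and the top position of the Rpl4 site (101 ± 32.8 CPM), 64023677, is 1 nt before a copy of SNORD18 that starts at 64023678. The Rpl3 window averaged 311 ± 222 CPM, and its place relative to Snord43 was not tested. Of the 3211 NXF1 tags within 20 nt of the 5′ end of these snoRNAs 52.5% fell in the last 3 nt before the first base, and SR proteins had the same edge, with 35.1% (SRSF7) to 68.4% (SRSF4).

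**Figure D5:**
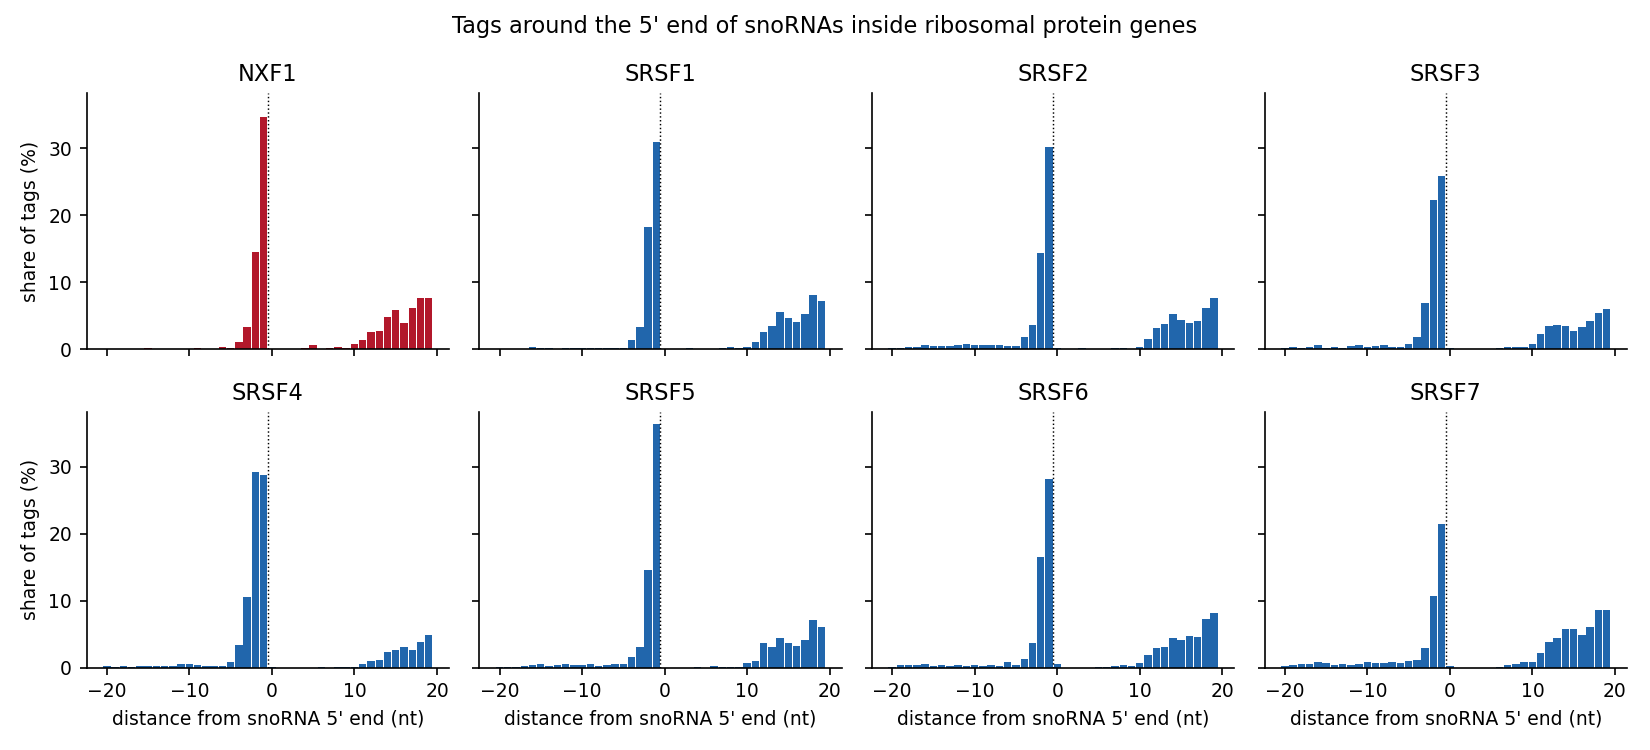
Share of tags (%) by distance (nt) from the first base of snoRNAs inside ribosomal protein introns, for each protein. Each panel is a protein, with bars pooled over its libraries and a dotted line at the first base; bars stand high just before it, where 1 nt upstream NXF1 has 34.6% and the SR proteins have 21.4 to 36.3%.

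In the test of single introns 0 of 27 were called for NXF1, in either direction, at backgrounds of 0.389% higher and 0% lower. The same held for 11 5′ UTRs (background 0.719% higher), 35 CDS (0.0285% in either direction) and 2 3′ UTRs (0.381% higher). Over all 75 ribosomal protein parts tested, the unadjusted limma p was under 0.05 for 17 higher and 8 lower, and 0 passed adjustment (0.204% of all parts were called higher and 0.0157% lower). The median log2 change of the 27 introns was 1.36, against -1.17 for all tested introns. The intron of Rpl23 had 265, 313 and 276 CPM with NXF1, against 0 to 257 CPM (median 45.6) with the SR proteins, with no overlap and a log2 change of 2.46 (SE 0.69, adjusted p = 0.118). That of Rpl5 had 312, 577 and 754 CPM, against 0 to 614 CPM (log2 change 2.70, SE 0.79, adjusted p = 0.136). Relative to coding-gene tags, which shifted the median of all parts by 1.19, 24 parts were called higher and 0 lower, and with trimmed-mean scaling 9 and 0. The shares of all parts called under these scalings are not given here, so the counts cannot be set against a background.

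The snoRNAs themselves, whose tags were counted apart from the host genes, were higher with NXF1. Their summed level was 27130, 26389 and 15730 CPM in the NXF1 libraries, against 1011 to 15272 CPM (median 5018) in the SR protein libraries and 1600 CPM, from 35 tags, in the pooled GFP-NLS file, with no overlap. Of 52 snoRNAs tested 20 were higher and 0 lower, and 110 of all 214 tested snoRNAs (51.4%) were called higher, so those inside ribosomal protein genes do not stand apart (median log2 change 2.83, against 2.81 for all snoRNAs). The count was 2 without NXF1 replicate 1, 2 without replicate 2 and 11 without replicate 3.

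The SNORA66 copy in intron 6 of Rpl5 had 472, 606 and 524 CPM with NXF1, against 0 to 127 CPM (median 0) with the SR proteins, with no overlap (log2 change 5.65, SE 0.98, limma adjusted p = 5.23e-04). Snora65 in Rpl12 had 998, 1389 and 598 CPM, against 0 to 273 CPM (log2 change 4.98, SE 0.97, adjusted p = 0.00153), and Snora33 in Rps12 had 1162, 1133 and 1297 CPM, against 0 to 479 CPM (log2 change 3.37, SE 0.80, adjusted p = 0.0113). Both were again free of overlap. Families with several near-identical copies, such as SNORA66, SNORD18 and SNORA62, are uncertain where reads could be split between copies.

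SR proteins differed from each other at few of these snoRNAs. SRSF3 was higher at 0 of 52 (0.467% of all snoRNAs called higher) and lower at 6 (13.1%), among them Snora65 in Rpl12, with a mean of 2.42 CPM, against 72.2 CPM with the other SR proteins (log2 change -3.74, limma adjusted p = 0.0130). SRSF5 was higher at 3 and lower at 2 (backgrounds 6.54 and 6.07%), and Snord14a in Rps13 had 3807, 1919, 1517 and 1212 CPM with SRSF5, against 0 to 2393 CPM, which overlapped them (log2 change 2.83, adjusted p = 0.0174). SRSF4 was higher at Snord21 in Rpl5, with 194, 134 and 389 CPM, against 0 to 73.2 CPM and with no overlap (log2 change 4.94, adjusted p = 0.0210, background 0.935%). SRSF6 was lower at Snora62 in Rpsa, with 28.4, 3.46 and 0.944 CPM, against 0 to 1752 CPM (median 542; log2 change -5.55, adjusted p = 0.0116, background 3.74%), and higher at 0 (1.40%). SRSF1 was higher at 2 (background 6.07%), SRSF7 lower at 2 (background 3.74%) and higher at 0 (0.467%), and SRSF2 had 0 calls in limma at 5 higher and 2 lower with an unadjusted p under 0.05.

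Whole genes were counted without tags inside annotated snoRNAs, but with the tags just beside them. NXF1 was higher in 1 of 66 ribosomal protein genes (background 3.34%) and lower in 1 (background 2.65%). Rps16, a small subunit protein, had 160, 228 and 248 CPM with NXF1, against 0 to 234 CPM (median 44.4) with the SR proteins, which overlapped it (log2 change 2.21, SE 0.68, adjusted p = 0.0437). Without tags beside small RNAs the change was 0.80 (adjusted p = 0.268), and the printed site before SNORA40 holds 55.1% of its NXF1 tags. Rpl10a, a large subunit protein, was listed at 0 in all 3 NXF1 libraries, against 0 to 250 CPM (median 93.9) with tags in 21 of 28 SR protein libraries (adjusted p = 0.0480). Neither call held when any 1 NXF1 replicate was left out (adjusted p = 0.173 to 0.224 for Rps16 and 0.191 to 0.273 for Rpl10a), and that of Rps16 was also lost without the libraries labelled SRSF2 replicates 2 and 5 (2.16, adjusted p = 0.0509). The median log2 change of the 66 genes was -0.26, against -1.85 for all genes, and with coding-gene totals, which shifted the median of all genes by 1.19, 19 were higher and 0 lower. The share of all genes called with coding-gene totals is not given here, so these 19 cannot be set against a background.

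SRSF5 was lower in 13 of 66 ribosomal protein genes and higher in 0, and 20.2% of all genes were called lower and 1.67% higher, so the share of 19.7% is that of the background. Rpl4 had 56.1, 334, 0 and 339 CPM with SRSF5, against 0 to 1892 CPM (median 686) with the other SR proteins, which overlapped it (log2 change -2.78, SE 0.92, limma adjusted p = 0.0310). Rpl32 had 0, 116, 52.8 and 102 CPM, against a mean of 218 CPM (log2 change -2.43, SE 0.66, adjusted p = 0.0129). Rps27l, a paralog of Rps27 known as a p53 target, was listed at 0 in all 4 SRSF5 libraries and had tags in 15 of the 24 others (adjusted p = 0.00832). Rps26, Rpl14, Rpl6, Rps25, Rps3, Rpl13 and Rplp2 followed, with log2 changes of -2.52 to -1.76, and Rps15 and Rps24 were also among the 13. The calls of Rpl13, Rps15 and Rps24 were lost when SRSF2 replicates 2 and 5 were left out (adjusted p = 0.05005, 0.0562 and 0.0583). The count was 1 without SRSF5 replicate 2, and trimmed-mean scaling, which moved the median of all genes by 1.18, gave 3 higher and 1 lower, and coding-gene totals 5 higher and 2 lower. Shares of all genes called in these alternatives are not given here. At the printed site of Rpl13a the 30-nt window averaged 227 ± 105 CPM with SRSF5 (SD, n = 4), against 69.8 CPM with SRSF2 and 0.561 to 6.33 CPM with the remaining SR proteins. The GFP-NLS file had 4 tags there, a raw count out of 34 in ribosomal protein genes and 21880 in all. This site therefore also carries control signal, and the SRSF5 value cannot be read as free of it.

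SRSF1, SRSF2, SRSF4, SRSF6 and SRSF7 had 0 ribosomal protein genes called in limma. Of all genes, 1.20% were called higher and 1.41% lower with SRSF1, 0.147 and 0.262% with SRSF2, 0.393 and 0.0328% with SRSF4, 4.18 and 0.754% with SRSF6 and 2.49 and 0.475% with SRSF7. At an unadjusted p under 0.05, SRSF1 was higher in 1 and lower in 5 of the 66 ribosomal protein genes (1.52 and 7.58%), against 4.06 and 13.2% of all genes at the same threshold. The counts were 4 and 2 with SRSF2 (6.06 and 3.03%, against 4.90 and 3.69% of all genes), and 6 and 4 with SRSF4 (9.09 and 6.06%, against 4.70 and 4.44%). They were 4 and 1 with SRSF6 (6.06 and 1.52%, against 23.6 and 3.44%), and 9 and 4 with SRSF7 (13.6 and 6.06%, against 15.8 and 2.56%). Rpl22, whose printed site averaged 213 ± 143 CPM with SRSF1 (SD, n = 4) and 7.97 to 122 CPM with the other SR proteins, is one of the genes with no call.

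Other gene groups linked to the ribosome were read against the share of all genes called. With NXF1 (3.34% of all genes higher and 2.65% lower), 0 of 21 mitochondrial ribosomal protein genes were higher and 0 lower (median log2 change -1.97), 0 and 1 of 19 other 5′ TOP genes (-0.66) and 0 and 4 of 18 ribosome assembly genes (-2.62). With SRSF3 8.45% of all genes were higher and 2.39% lower. Of the lists, 1 of 21 mitochondrial, 2 of 19 5′ TOP and 0 of 18 assembly genes were higher and 0 lower. With SRSF5 (20.2% of all genes lower), 4 of 21 mitochondrial (19%), 2 of 19 5′ TOP (10.5%) and 6 of 18 assembly genes (33.3%) were lower and 0 higher. With SRSF6 (4.18% of all genes higher), 1 of 21 mitochondrial, 1 of 19 5′ TOP and 3 of 18 assembly genes were higher and 0 lower. With SRSF7 1 of 19 5′ TOP genes was higher and 1 lower, and the mitochondrial and assembly lists had 0 calls. With SRSF1, SRSF2 and SRSF4 the lists had 0 calls.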

How the data were processed

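The authors deposited, for each library, signed whole counts of cDNAs at single nucleotides that passed their false discovery rate of 0.05. Per the file headers the build is mm9, the submitters' processing notes name CASAVA 1.4, and no aligner is named in what was read here. Tags were assigned by strand to GENCODE vM1 transcript parts and scaled to CPM (a library of 1e6 listed tags). Exons of the coding transcript with the longest CDS came first, then small RNAs, then other exons and introns. Groups follow the labels. Genes or parts that reached 42.1 CPM in 3 or more libraries, and 15 or more tags in total, entered 1 limma 3.58.1 voom fit (R 4.3.3) over 31 libraries, with calls at a Benjamini-Hochberg adjusted p under 0.05. Tables were made with Python 3.11.15, pandas 2.3.3 and numpy 2.4.6, and the fit was checked on simulated data. The study calls the replicates biological, the labels do not tie them to separate cultures, and p-values measure the spread between libraries. Named are called members (up to 10 a comparison by p), the highest levels, the most intron tags and a set of well-studied subunits. Members and lists (mitochondrial ribosomal, 5′ TOP, assembly, snoRNAs) were chosen with earlier results of these data known. Some members named by this rule are not reported here.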

Additional observations from a re-analysis of the deposited data

Results flagged for a closer look

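Among 123 group values, 11 had a library far from the others of its group, where chance gives about 1 in 20 for independent normal values. These values are neither, with many at 0 and shares of 1 total, so that rate is a rough guide only. NXF1, SRSF3, SRSF4 and SRSF6 had too few libraries for this check and were not screened. In SRSF1 replicate 4, with 13 tags in ribosomal protein genes, the 5′ UTR and the 3′ UTR held 23.1% of them each, against 5.25 to 6.38% and 3.88 to 4.96% in the other SRSF1 libraries. In SRSF7 replicate 1, with 32 tags, the CDS held 6.25% (49.2 to 74.3% in the others) and introns 56.25% (6.22 to 24.9%). In SRSF2 replicate 1, with 103 tags, introns held 67.0% (25.9 to 32.6%), and in SRSF2 replicate 3, with 46 tags, Rplp2 was at 0 CPM (77.9 to 97.3 CPM). SRSF7 replicate 6 had 753 CPM in Rpl32 (0 to 242 CPM), 221 CPM in Rps15 (0 to 70.4 CPM) and 56.2 CPM in the Rplp1 5′ UTR (0 to 17 CPM). SRSF7 replicate 3 had 70.2 CPM in the Rpl32 5′ UTR (0 to 22.7 CPM), and SRSF1 replicate 1 had 5.69 CPM in the Rpl28 5′ UTR (0 CPM in the others).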

How the results depend on the processing

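Numbers are ribosomal protein genes or parts called, higher and lower together, and for NXF1 snoRNAs the snoRNAs inside those genes. Shares of all genes or parts called under each setting are not given here, so these counts have no background beside them. Trimmed-mean scaling gave 5 genes for NXF1, 1 for SRSF3, 1 for SRSF4 and 4 for SRSF5, and 9 parts for NXF1 and 0 for SRSF7. Coding-gene totals gave 19 genes for NXF1, 1 for SRSF1, 7 for SRSF3, 5 for SRSF4, 7 for SRSF5, 2 for SRSF6 and 1 for SRSF7, parts 24 for NXF1, 17 for SRSF3 and 2 for SRSF7, and 46 snoRNAs. No filter on low values gave 0 genes for NXF1, 1 for SRSF3 and 2 for SRSF5, 3 parts for SRSF3 and 2 for SRSF7, and 8 snoRNAs. The 2 parts for SRSF7 did not include the Rps24 CDS. limma-trend gave 0 genes for NXF1, 1 for SRSF3 and 0 for SRSF5, 0 parts for SRSF7 and 13 snoRNAs. Replicate numbers did not pair the libraries (91 same-numbered pairs, r -0.22 to 0.29, with 8 of 31 libraries best matched to their own number), and the replicate block gave 8 genes for SRSF5, 1 for SRSF6, 0 parts for SRSF7 and 24 snoRNAs. Libraries of 50000 to 250000 tags gave 2 genes for SRSF5, 5 parts for NXF1, 0 for SRSF7 and 34 snoRNAs. The later run year gave 9 genes and 4 parts for NXF1, 0 parts for SRSF7 and 31 snoRNAs. Each run year and the range of library sizes hold only some of the proteins, so fewer proteins were compared there. Leaving out libraries labelled SRSF2 replicates 2 and 5 gave 1 gene for NXF1 and 1 for SRSF6. Positions counted once gave 5 genes for NXF1, 2 for SRSF1 and 4 for SRSF5, 10 parts each for NXF1 and SRSF3, and 45 snoRNAs. Small RNA tags counted with the host gave 8 genes for NXF1, 8 for SRSF5 and 1 for SRSF7. Of the alternatives chosen after seeing the data, the earlier run year gave 5 genes for SRSF5 and 4 for SRSF6, and leaving out tags beside small RNAs gave 1 gene for NXF1. Without 1 replicate the counts were 0 to 3 genes for NXF1, 0 to 4 for SRSF3, 1 to 16 for SRSF5, 0 to 1 for SRSF6, 2 to 8 parts for SRSF3, 1 to 3 for SRSF7, and 2 to 23 snoRNAs. The cause of these differences was not tested. With positions counted once the intron share for NXF1 was 17.5 to 24.9%. No single called gene or part changed direction, but medians over the ribosomal protein genes did. For SRSF5 the median log2 change was -0.89, against 0.44 with trimmed-mean scaling and 0.19 with coding-gene totals, and for NXF1 -0.26, against 1.04 and 0.90. For SRSF3 it was 0.65 and for SRSF6 0.55, against -0.08 and -0.19 with coding-gene totals. Medians of SRSF1 (-0.31), SRSF2 (-0.05) and SRSF7 (0.10) also changed sign under coding-gene totals (0.05, 0.16 and -0.10), and SRSF7 under trimmed-mean scaling (-0.71). Small libraries and mRNA copies in the genome limit what a 0 can show.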
